A study of Mus musculus with 6 samples.

Results

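Cell-surface receptors for growth factors, 7 in all, and 3 ligands of the platelet-derived growth factor (PDGF) family were followed in osteoclasts made from mouse bone marrow. The receptors were Pdgfra, Pdgfrb, Egfr, Fgfr1, Fgfr2, Met and Kdr, and the ligands were Pdgfa, Pdgfb and Pdgfc. These 10 genes were picked by name, with earlier results of these data known, from the 37074 gene names on the array. They were covered by 25 of its 56605 transcript probes, and all 25 are described. RNA came from osteoclasts of 3 Ano1fl/fl mice, which carry loxP sites around Ano1 but no Cre, and of 3 Ctsk-Cre;Ano1fl/fl littermates, in which a transgenic Cre driven by the cathepsin K promoter is meant to remove Ano1, a calcium-activated chloride channel gene, in osteoclasts. All cultures received RANKL, the cytokine that drives osteoclast formation, over 5 days. The methods describe their osteoclast cultures as marrow of mice 6 to 8 weeks old, 1 day in M-CSF at 10 ng/ml and then 30 ng/ml M-CSF with 50 ng/ml RANKL, and the labels call the starting material bone marrow cells. Each culture was hybridised to its own single-colour Agilent array.

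Receptor tyrosine kinases are transmembrane proteins that dimerise when a growth factor binds outside the cell and then phosphorylate each other inside it, which recruits adaptors and switches on the Ras-MAP kinase and PI3K-Akt relays. PDGF chains pair into dimers that bind the alpha and beta receptors, best known from fibroblasts, osteoblast precursors and pericytes, and PDGF-BB made by osteoclast-lineage cells is known as a signal to neighbouring vessels and stromal cells. EGFR and MET, the receptor of hepatocyte growth factor, are widely expressed on epithelial and stromal cells, MET also on osteoclast precursors, FGFR1 and FGFR2 are skeletal FGF receptors, and KDR is the main VEGF receptor of endothelium.

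All 6 arrays shared 1 slide and 1 scan. The scanner software marked 33480 to 34951 of the 59305 transcript spots of an array as well above background and none as saturated. The deleted gene gave no check of the labels, because the only Ano1 probe was below background throughout, so these arrays cannot tell whether the groups carry the right labels, and every direction here is that of the arrays as labelled. All 10 genes of an osteoclast marker list were tested and all 10 rose in the group labelled Ctsk-Cre;Ano1fl/fl (9 of them without scaling between the arrays), Ctsk by 3.17 and Calcr, the calcitonin receptor gene, by 8.89 on the log2 scale, the latter from a level above background on 2 of the Ano1fl/fl arrays. This direction is the opposite of that described by the study for osteoclast markers in these mice. Ctsk and Acp5, which encode cathepsin K and tartrate-resistant acid phosphatase, were well above background on all 6 arrays. A list of 14 genes typical of stromal cells and osteoblasts also moved with the groups: 9 of its 13 tested genes were higher (Lum in a direction that the filter on dim probes fixed) and 2 were lower, and its summed normalized signal was 3341 to 4312 in the Ano1fl/fl group and 57491 to 95377 in the Ctsk-Cre;Ano1fl/fl group.

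Growth factor receptors and PDGF ligands were mostly higher in the group labelled Ctsk-Cre;Ano1fl/fl. Of the 10 genes, 7 rose, 2 fell and 1, Fgfr2, did not pass the test. Among the 7 receptors, 5 rose and 1 fell. Among the 3 ligands, 2 rose and 1 fell. The probe with the highest mean signal stands for each gene, and differences are means of quantile-normalized log2 signals, Ctsk-Cre;Ano1fl/fl minus Ano1fl/fl, tested with limma and adjusted over the 20645 genes tested. Testing required that probe to be well above background in 3 of 3 arrays of either group. At the same threshold, an adjusted p under 0.05, 23.4% of all tested genes were higher and 29.0% were lower. Rises of more than 2-fold were found for 5 of the 10 genes, against 9.88% of all genes, though Pdgfra, 1 of the 5, passed the filter through the Ctsk-Cre;Ano1fl/fl group alone, and 1 gene fell by more than 2-fold, against 7.19%. The arrays of the groups did not overlap for 9 of the 10 genes, against 64.0% of all genes. The median difference of the 10 genes was 1.31, also with Pdgfra set to its lower limit, and that of all tested genes was -0.06. Because the 10 genes were chosen with earlier results of these data known, these comparisons describe them and test no excess over all genes. Without scaling between the arrays, all genes shifted down by 0.24 at the median and 2564 genes were called higher and 6989 lower in place of 4839 and 5987, while 6 of the 10 members were called higher and 3 lower.

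**Figure D1:**
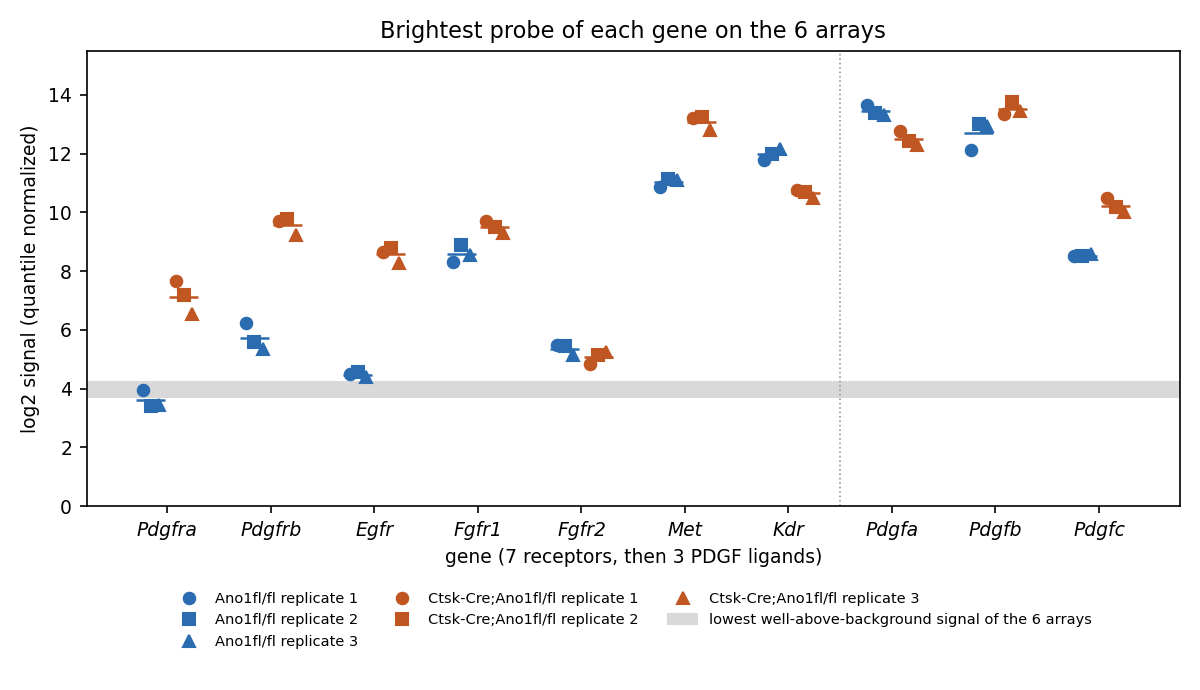
Normalized log2 signal of the brightest probe of each gene on each array (y axis), for 7 receptors and then 3 PDGF ligands (x axis), with blue symbols for the 3 Ano1fl/fl arrays, orange symbols for the 3 Ctsk-Cre;Ano1fl/fl arrays, symbol shape for the replicate number, short lines for group means and a grey band for the lowest signal well above background on the 6 arrays. The groups lie apart for every gene except Fgfr2, and the 3 Ano1fl/fl values of Pdgfra lie at or below the grey band.

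The PDGF receptors were far brighter on the arrays labelled Ctsk-Cre;Ano1fl/fl. Pdgfrb, the receptor that binds PDGF-BB and marks pericytes and fibroblasts, had a single probe, A_51_P150964 for NM_008809, on chromosome 18. Its processed signal, the brightness after the scanner software removed background, was 72.9, 52.1 and 47.9 on Ano1fl/fl arrays 1 to 3 and 872, 723 and 567 on Ctsk-Cre;Ano1fl/fl arrays 1 to 3. Even the dimmest array of the second group was well above the brightest of the first. On the normalized log2 scale the level was 5.71 ± 0.47 (SD, n = 3) against 9.57 ± 0.31 (SD, n = 3), a difference of 3.85 (standard error, SE, 0.27, limma adjusted p = 0.000124), or 14.4-fold.

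Pdgfra encodes the receptor that binds PDGF-A, PDGF-B and PDGF-C chains and is a common marker of mesenchymal progenitors. Its brightest probe, A_51_P345649 at position 6211 of NM_011058 (mm9 chr5:75593888-75593947), read 14.4, 10.9 and 12.5 on the Ano1fl/fl arrays, not well above background on any of them. The Ctsk-Cre;Ano1fl/fl arrays read 208, 120.2 and 84.9, all 3 well above background. With each array of the dimmer group set to its lowest signal marked well above background, Pdgfra was at least 8.93-fold higher. The test used the measured values, those below background included (limma adjusted p = 0.000285), and Pdgfra entered it through the Ctsk-Cre;Ano1fl/fl arrays alone. The measured log2 means were 3.60 ± 0.31 and 7.13 ± 0.57 (SD, n = 3 each). The measured difference of 3.53 was 1.44 with normexp background correction and 1.98 with the series matrix, both of which compress signals near background. The other Pdgfra probes, A_55_P2735715 for the clone AK145097 and A_55_P2734892 for the clone AK139094, were not well above background on any array, so those transcripts have no measured level in either group.

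Most stromal markers moved with both PDGF receptors. Col1a1 and Col1a2, which encode the chains of type I collagen, were higher by 6.12 and 5.39 and Col3a1 by 3.94 on the log2 scale (limma adjusted p = 1.92e-05, 2.52e-05 and 7.74e-05). In the other direction, Lepr, the leptin receptor gene of marrow stromal cells, and Runx2, an osteoblast transcription factor gene, were at -0.69 and -0.46 (limma adjusted p = 0.0117 and 0.0494; chosen after their values were seen). With 75th percentile scaling, with normexp and with the series matrix, 1 gene of the stromal list was lower in place of 2. Of the 3 Ctsk-Cre;Ano1fl/fl arrays, replicate 1 had the highest summed stromal signal, 95377, and replicate 3 the lowest, 57491. Normalized Pdgfra was likewise highest on replicate 1 and lowest on replicate 3, while Pdgfrb was highest on replicate 2, at 9.79 on the log2 scale against 9.70 and 9.22 on replicates 1 and 3. Among 8 markers of pericytes and smooth muscle the picture was mixed. Of 6 tested genes 4 were higher: Tagln, a smooth muscle actin-binding protein gene, by 5.08 (limma adjusted p = 1.62e-05), Cnn1, the calponin gene, at least 11.3-fold from below background, a direction the filter fixed, and Acta2 and Mcam by 0.54 and 0.45 (limma adjusted p = 0.00182 and 0.0264). These 4 were named after their values were seen. Rgs5 and Des were not well above background on any array, and Cspg4, which encodes the pericyte proteoglycan NG2, differed by 0.32 and Myh11, a smooth muscle myosin gene, by -0.39 (limma adjusted p = 0.206 and 0.0579). With 75th percentile scaling 3 genes of this list were higher and 1 was lower, and without scaling 2 and 1. The list's summed signal was 59254 to 64110 in the Ano1fl/fl group and 86707 to 104223 in the Ctsk-Cre;Ano1fl/fl group. Mcam and Acta2 made up 90.9% to 99.6% of it, and the other 6 genes summed to 247 to 321 and 5332 to 7952. Of these 6, Tagln was by far the brightest on Ctsk-Cre;Ano1fl/fl arrays 1 to 3, at 12.90, 12.68 and 12.31 on the log2 scale. The part of such cells in the receptor signals was not tested, and in RNA from whole cultures more or fewer cells of a type and more or less RNA per cell cannot be told apart.

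**Figure D2:**
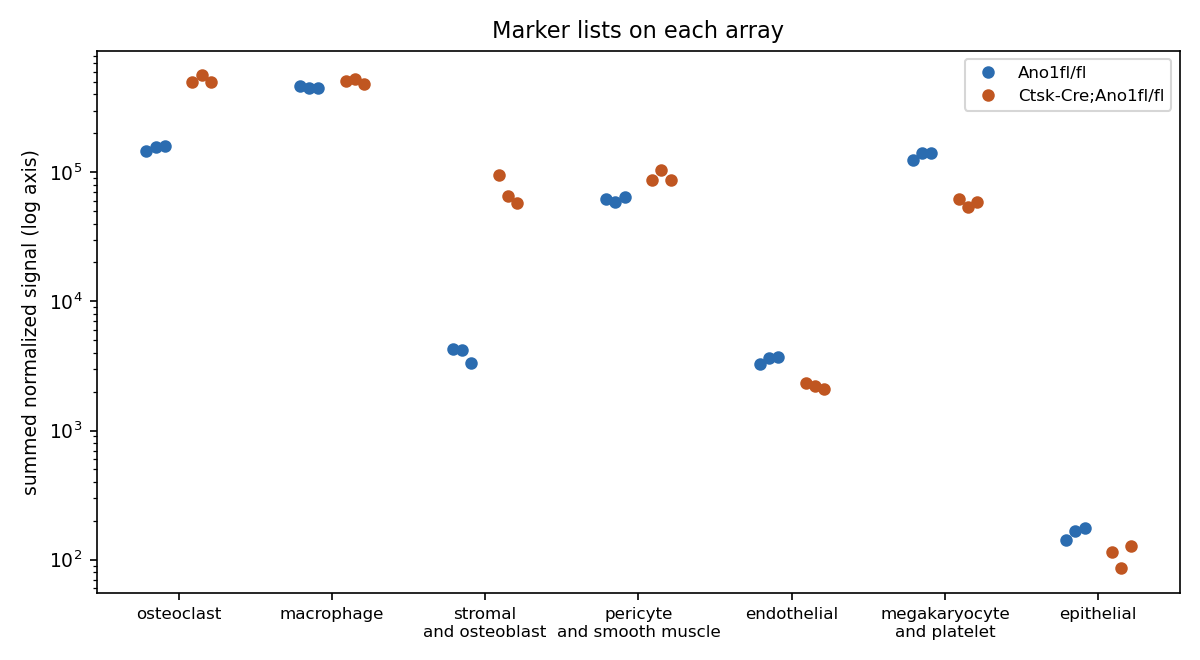
Summed normalized signal of 7 marker lists (x axis) on each array, on a log axis (y axis), with blue points for the 3 Ano1fl/fl arrays and orange points for the 3 Ctsk-Cre;Ano1fl/fl arrays. The stromal and osteoblast, osteoclast, pericyte and smooth muscle, and macrophage lists are higher on all 3 Ctsk-Cre;Ano1fl/fl arrays, the macrophage list in a way that depends on scaling. The endothelial, epithelial, and megakaryocyte and platelet lists are lower, the last at 53360 to 62132 there against 123622 to 141262. The groups overlap without Vwf in the endothelial list and without Cdh1 in the epithelial list.

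Egfr, the receptor of EGF, TGF-alpha, HB-EGF and related ligands, had the largest rise among the members above background in both groups, 4.10 against 3.85 for Pdgfrb. This order turned with normexp, the series matrix, the mean of all probes and without Ano1fl/fl replicate 1 (2.39, 2.94, 2.63 and 4.09 against 2.81, 3.18, 3.85 and 4.12). Its brightest probe, A_52_P106259 at position 5869 of NM_207655 (mm9 chr11:16813815-16813874), read 20.9, 25.2 and 24.4 on the Ano1fl/fl arrays, close to but well above background on all 3. On the Ctsk-Cre;Ano1fl/fl arrays it read 416, 356 and 294. The replicates of each group were close together and the groups far apart. In log2 units the means were 4.48 ± 0.08 and 8.57 ± 0.26 (SD, n = 3 each), a difference of 4.10 (SE 0.14, limma adjusted p = 1.36e-05), or 17.1-fold. The differences with normexp and with the mean of all probes passed the threshold too.

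A further 3 Egfr probes covered other stretches of the transcript. A_52_P674338 (mm9 chr11:16812181-16812240) and A_52_P56471 (mm9 chr11:16783545-16783604) were below background on all Ano1fl/fl arrays and well above it on all Ctsk-Cre;Ano1fl/fl arrays, and they were at least 3.86-fold and at least 2.99-fold higher (limma adjusted p of the measured values over all probes = 0.000177 and 0.0013). Both entered the test through the brighter group, so they could come out in no other direction. The second of these is shown because it reads the part of the transcript that encodes the cysteine-rich outer region of the receptor. Capitals run from a cysteine codon to the next one.

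Egfr A_52_P56471: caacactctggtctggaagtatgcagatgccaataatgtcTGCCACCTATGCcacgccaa

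It read 11.1, 6.20 and 4.65 in the Ano1fl/fl group and 55.7, 38.3 and 39.1 in the Ctsk-Cre;Ano1fl/fl group. The last Egfr probe, A_52_P5855 for the clone AK049452, stayed at the floor on all 6 arrays, between 3.11 and 3.77.

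Met, the hepatocyte growth factor receptor, was bright in both groups and brighter in the group labelled Ctsk-Cre;Ano1fl/fl. Its probe A_52_P656418, at position 6436 of NM_008591 (mm9 chr6:17523765-17523824), read 1803, 2522 and 2589 on the Ano1fl/fl arrays. The readings were 9346, 7873 and 6664 on the Ctsk-Cre;Ano1fl/fl arrays. The groups did not overlap. The log2 means were 11.03 ± 0.14 and 13.09 ± 0.24 (SD, n = 3 each), a difference of 2.05 (SE 0.14, limma adjusted p = 0.000117), or 4.15-fold. A second probe at position 1426 (mm9 chr6:17442312-17442371), shown as the one that reads the outer, ligand-binding part of the message and with no base marked, rose as well.

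Met A_55_P2830865: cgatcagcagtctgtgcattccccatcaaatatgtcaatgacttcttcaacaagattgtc

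Its signal was 98.3, 103.7 and 148 in the Ano1fl/fl group and 316, 311 and 225 in the other, a log2 difference of 1.52 (SE 0.19, limma adjusted p over all probes = 0.00112). Mst1r, which encodes RON, the closest relative of MET, was not among the 10 genes but belongs to the list of other receptor kinases described below.

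Fgfr1, a receptor of FGF2 and many other FGFs, rose by a smaller amount. Its brightest probe, A_55_P2057777 at position 3906 of NM_010206 (mm9 chr8:26685072-26685131), read 299, 518 and 445 in the Ano1fl/fl group and 868, 601 and 602 in the Ctsk-Cre;Ano1fl/fl group. The lowest value of the second group lay above the highest of the first. The log2 difference was 0.93 (SE 0.17, limma adjusted p = 0.00517), or 1.90-fold, between 8.57 ± 0.28 and 9.50 ± 0.20 (SD, n = 3 each). The dimmer probe A_65_P11598 (mm9 chr8:26682852-26682911) lies in the part that encodes the kinase domain, and its capitals are the codons of the Asp-Phe-Gly motif that holds magnesium in the kinase active site.

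Fgfr1 A_65_P11598: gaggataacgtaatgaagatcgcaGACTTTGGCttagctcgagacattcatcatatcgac

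This kinase-domain probe read 16.1, 28.8 and 19.5 against 70.4, 36.4 and 32.0, a log2 difference of 1.24 (SE 0.30, limma adjusted p over all probes = 0.0136). The remaining Fgfr1 probes, A_52_P136162 and A_55_P2506940, were not well above background on any array.

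Fgfr2, which binds FGF7, FGF10 and other FGFs in its splice forms, gave the only member value that did not pass the test. Its brightest probe ends at the stop codon, shown in capitals, of the message NM_010207 (mm9 chr7:137307473-137307532).

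Fgfr2 A_55_P2094881: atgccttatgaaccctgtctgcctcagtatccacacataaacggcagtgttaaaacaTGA

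It read 42.8, 47.3 and 41.7 in the Ano1fl/fl group and 30.4, 30.2 and 35.4 in the Ctsk-Cre;Ano1fl/fl group. After normalization the groups overlapped, at 5.36 ± 0.19 and 5.08 ± 0.21 (SD, n = 3 each). The log2 difference was -0.28 (SE 0.14, limma adjusted p = 0.144), and only without scaling between the arrays did it pass, at -0.46 (limma adjusted p = 0.0357). The other Fgfr2 probe, A_52_P158800, was below background on all 6 arrays.

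Kdr, which encodes VEGF receptor 2, was the receptor that fell. Its bright probe, A_51_P316553 at position 5377 of NM_010612 (mm9 chr5:76329309-76329368), read 3377, 4694 and 5528 on the Ano1fl/fl arrays. The Ctsk-Cre;Ano1fl/fl arrays read 1794, 1342 and 1357, all lower than any Ano1fl/fl array. The log2 means were 11.98 ± 0.20 and 10.66 ± 0.15 (SD, n = 3 each), a difference of -1.33 (SE 0.13, limma adjusted p = 0.000448), or 2.51-fold. The other Kdr probes, A_55_P2745062 for the transcript EU884114 and A_52_P478193 for an Ensembl transcript, were at the floor on every array, at 3.26 to 3.95 and 2.98 to 3.67. With the mean of all 3 probes the difference was therefore -0.46, still past the threshold.

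Endothelial markers were mostly not called beside Kdr. Of 8 such genes, 7 were tested, 1 was higher (Pecam1, a cell adhesion gene that leukocytes also express, by 0.91, limma adjusted p = 0.00637) and 1 was lower, Vwf, the von Willebrand factor gene of endothelium and megakaryocytes, at -0.97 (limma adjusted p = 0.00137). Cdh5, which encodes the endothelial cadherin, differed by -0.39 (limma adjusted p = 0.224) and Emcn by -0.35 (limma adjusted p = 0.555). The summed signal of the list was 3269 to 3726 in the Ano1fl/fl group and 2098 to 2341 in the Ctsk-Cre;Ano1fl/fl group. Vwf made up 56% to 78.6% of this sum, and without it the groups overlapped, at 799 to 898 and 777 to 924. A list of 6 megakaryocyte and platelet genes moved in the direction of Kdr: 5 were lower and 1 was not called, with Pf4 and Ppbp, both platelet chemokine genes, lower by 1.16 and 1.72 and Itga2b, the platelet integrin gene, by 0.68 on the log2 scale (limma adjusted p = 0.000225, 0.000104 and 0.0248). Its summed signal is given with the plot of marker lists. The part of either cell type in the Kdr signal was not tested.

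PDGF ligands split 2 to 1, with Pdgfb and Pdgfc higher and Pdgfa lower. Pdgfa, which encodes the chain that binds the alpha receptor alone, fell. Its probe A_55_P2007470, at position 950 of NM_008808 (mm9 chr5:139452934-139452993), read 12483, 12294 and 12059 in the Ano1fl/fl group and 7031, 4486 and 4665 in the Ctsk-Cre;Ano1fl/fl group. The 3 Ano1fl/fl arrays agreed within a narrow range, and every Ctsk-Cre;Ano1fl/fl array lay below them. The log2 difference was -0.95 (SE 0.16, limma adjusted p = 0.00353), or 1.93-fold, between 13.45 ± 0.18 and 12.50 ± 0.26 (SD, n = 3 each). It lay past 2-fold with 75th percentile scaling (-1.04) and without scaling (-1.22). A probe in the coding part, at position 670 (mm9 chr5:139455132-139455191), is shown with the cysteine, alanine and cysteine codons at the end of the growth factor domain in capitals.

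Pdgfa A_51_P370099: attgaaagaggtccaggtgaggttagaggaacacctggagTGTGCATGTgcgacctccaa

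It fell by a similar amount, from 2391, 2187 and 2127 to 1329, 847 and 756, a log2 difference of -1.02 (SE 0.21, limma adjusted p over all probes = 0.00774).

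Pdgfb, whose product forms PDGF-BB and binds both receptors, passed the test by a small margin and its probes disagreed. A_55_P2047310, at position 2812 of NM_011057 (mm9 chr15:79826376-79826435), read 4316.5, 9621 and 9459 in the Ano1fl/fl group and 10257, 11292 and 10415 in the Ctsk-Cre;Ano1fl/fl group. Ano1fl/fl replicates 2 and 3 lay close to the other group and Ano1fl/fl replicate 1 far below it. The log2 difference was 0.81 (SE 0.26, limma adjusted p = 0.038), or 1.76-fold, between 12.70 ± 0.49 and 13.51 ± 0.22 (SD, n = 3 each). Without Ano1fl/fl replicate 1 the difference was 0.53 (limma adjusted p = 0.0354), and it missed the threshold without Ano1fl/fl replicate 3 (0.93, limma adjusted p = 0.0506) or any of Ctsk-Cre;Ano1fl/fl replicates 1, 2 and 3 (0.90, 0.69 and 0.84, limma adjusted p = 0.0615, 0.108 and 0.0773). It also missed with 75th percentile scaling (0.71), without scaling (0.54), without a filter on dim probes and with the methods' t-test. The second probe, A_55_P2733467 for the clone AK087840 (mm9 chr15:79832821-79832880), read 481, 1109.8 and 1316 against 625, 669 and 501, with overlapping groups and a log2 difference of -0.38 (SE 0.32, limma adjusted p over all probes = 0.356).

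Pdgfc, a chain secreted in latent form that acts on the alpha receptor after cleavage, rose on the arrays labelled Ctsk-Cre;Ano1fl/fl. Its probe A_55_P2903017, at position 3402 of NM_019971 (mm9 chr3:81017844-81017903), read 347, 399 and 458 in the Ano1fl/fl group and 1465, 930.2 and 977 in the Ctsk-Cre;Ano1fl/fl group. The groups were well apart, and after normalization the 3 Ano1fl/fl arrays were almost equal. The log2 difference was 1.69 (SE 0.13, limma adjusted p = 0.000158), or 3.22-fold, between 8.53 ± 0.04 and 10.22 ± 0.23 (SD, n = 3 each). The Pdgfc probe A_52_P408629, for an Ensembl transcript, was at the floor on every array.

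Counted over probes, 16 of the 25 were tested and 9 were not well above background on any array. In a limma fit over all 31848 probes tested, 11 of the 16 rose, 3 fell and 2 were not called, while 21.8% of all tested probes were higher and 30.6% lower. Of these 11, 3 probes, for Pdgfra and Egfr, passed the filter through the Ctsk-Cre;Ano1fl/fl group alone. More than 1 probe was present for 9 of the 10 genes. Among genes with more than 1 probe above background in both groups, both probes moved the same way for Fgfr1, Met and Pdgfa, and for Pdgfb they did not.

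**Figure D3:**
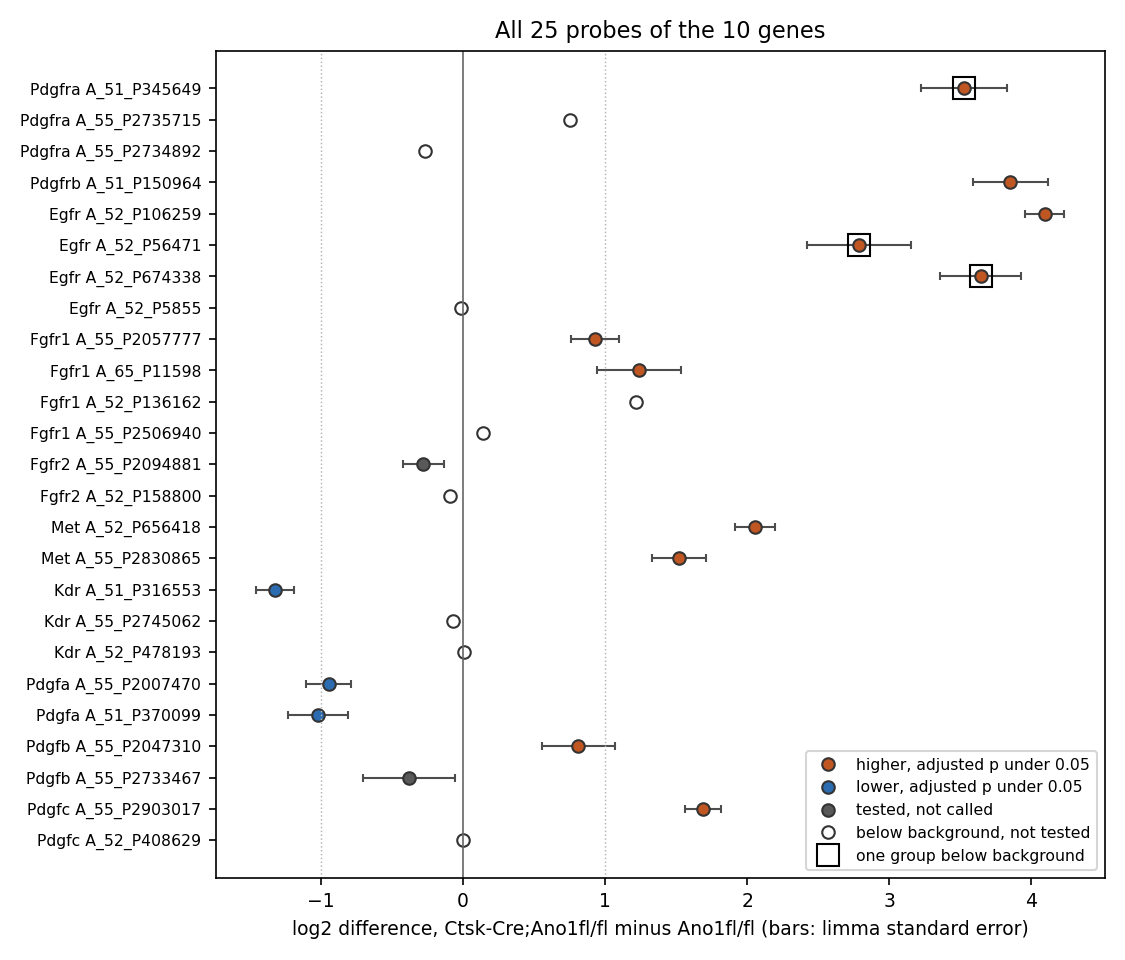
Log2 difference, Ctsk-Cre;Ano1fl/fl minus Ano1fl/fl (x axis), for all 25 probes (y axis), with bars for limma's standard error, orange for higher, blue for lower, grey for tested but not called, and open circles for the 9 probes below background on all arrays. Dotted lines mark 2-fold. Square frames mark the 3 probes, for Pdgfra and Egfr, whose Ano1fl/fl arrays were below background, so that their plotted difference rests on values without a measured level. The 2 Pdgfb probes lie on opposite sides of 0.

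The genes whose pattern over the 6 arrays was most like that of Egfr and Kdr, the members with the largest measured rise and fall after quantile normalization, were found by Euclidean distance between gene-centred log2 signals. For Egfr these were Bpi, which encodes a bactericidal protein of neutrophils (distance 0.20, difference 4.12), Tead1, a transcription factor of the Hippo pathway (0.20, difference 4.01), and Gnai1, which encodes a G protein alpha subunit (0.21, difference 4.08). For Kdr they were Treml1, which encodes a platelet granule receptor (distance 0.13, difference -1.28), Sytl4, which encodes granuphilin, a vesicle protein (0.14, difference -1.37), and Bace1, which encodes beta-secretase (0.16, difference -1.24).

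Start sites of 7 of the 10 genes were found in a table of RefSeq promoters (GRCm38.p6), with 2 entries for Pdgfa. The 250 bases before the start were searched on both strands for the GC box GGGCGG, the CCAAT box, the TATA box TATAAA and the AP-1 motif TGANTCA, where N is any base, each counted whether or not it overlaps another. Among all 32851 promoters listed there, 32.7%, 33.8%, 12.4% and 6.7% hold them. Of the 8 entries none held a CCAAT or TATA box in these letters, Met alone held an AP-1 motif, and the entries of Egfr, Met, Kdr and Pdgfa held 1 to 3 GC boxes. Those of Met, Egfr and Kdr are shown, because the profiles of Egfr and Kdr are described above and Met held the most matches, with matches in capitals.

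Met chr6:17463707-17463956, plus strand: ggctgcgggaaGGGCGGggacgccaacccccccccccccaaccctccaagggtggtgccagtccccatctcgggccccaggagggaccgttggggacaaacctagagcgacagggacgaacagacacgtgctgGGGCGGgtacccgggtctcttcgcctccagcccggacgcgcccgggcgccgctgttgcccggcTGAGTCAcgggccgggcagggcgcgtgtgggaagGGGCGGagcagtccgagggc
Egfr chr11:16751953-16752202, plus strand: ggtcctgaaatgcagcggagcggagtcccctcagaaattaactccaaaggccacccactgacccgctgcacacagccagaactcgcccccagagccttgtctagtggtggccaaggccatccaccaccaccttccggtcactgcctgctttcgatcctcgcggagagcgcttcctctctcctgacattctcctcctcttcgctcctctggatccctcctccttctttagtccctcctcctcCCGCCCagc
Kdr chr5:75978456-75978705, minus strand: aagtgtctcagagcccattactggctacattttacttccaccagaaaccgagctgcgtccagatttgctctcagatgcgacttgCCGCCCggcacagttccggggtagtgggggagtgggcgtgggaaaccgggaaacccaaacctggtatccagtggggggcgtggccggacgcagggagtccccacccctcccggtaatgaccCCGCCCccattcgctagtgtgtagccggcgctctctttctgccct

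GC content of these windows was 74.0% for Met, 60.8% for Egfr and 61.6% for Kdr. A match describes letters and no factor binding was measured.

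Related receptors moved in both directions. Of 33 other receptor tyrosine kinases and related receptors, Fgfrl1 among the latter, 22 were tested. Of these 7 rose, 6 fell and 9 were not called, with a median log2 difference of -0.03. All 7 rises were more than 2-fold and none of the falls was. By measured values the rises were led by Mst1r at 6.17, Ddr2, a collagen receptor of mesenchymal cells, at 5.42, and Ror2, a WNT5A receptor. Ddr2 was well above background on 1 Ano1fl/fl array and Ror2 on none, which makes Ror2 at least 4.07-fold higher, in a direction fixed by the filter, and leaves the order of both beside Ryk at 3.28 and Tyro3 at 2.82 unknown (for Mst1r, Ddr2 and Ror2 limma adjusted p = 1.49e-05, 0.000903 and 3.06e-05). Fgfr3, Axl, a receptor of GAS6 on macrophages, and Ntrk2, a neurotrophin receptor, led the falls by measured values, at -0.85, -0.75 and -0.71 on the log2 scale (limma adjusted p = 0.00443, 0.00325 and 0.00529). Fgfr3 was well above background on 1 Ctsk-Cre;Ano1fl/fl array, so its value and its place rest on levels partly below background. Csf1r, the M-CSF receptor that macrophages and osteoclasts depend on and whose ligand was in the medium, differed by -0.04 (limma adjusted p = 0.728; chosen after its value was seen).

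Growth factor ligands moved in both directions. The list holds 25 ligands of the member receptors or of their close relatives. Of these 16 were tested, 7 rose, 5 fell and 4 were not called, with a median of 0.19. Fgf21 and Ereg among the rises and Nrg2 among the falls were below background in one group and entered the test through the other, which fixed their direction. Fgf7, keratinocyte growth factor, rose by 5.12 and Hbegf, which encodes an EGFR ligand, by 4.65 (limma adjusted p = 2.41e-05 and 2.22e-05), while Fgf21 was below background on the Ano1fl/fl arrays and at least 7.55-fold higher (limma adjusted p = 0.000102). Nrg2, a neuregulin gene, was below background on the Ctsk-Cre;Ano1fl/fl arrays and at least 5.52-fold lower (limma adjusted p = 0.000254). Pgf, which encodes placental growth factor, fell by 2.72 and Nrg4 fell by 1.42 on the log2 scale (limma adjusted p = 0.000689 and 0.000534). Neuregulins bind ERBB3 and ERBB4, not EGFR itself, and placental growth factor binds FLT1, not KDR, so Nrg2, Nrg4 and Pgf encode ligands of relatives of the members. The other 2 falls were those of Hgf, which encodes the ligand of MET, at -0.94, and Vegfc, a VEGF gene, at -1.21 (limma adjusted p = 0.00506 and 0.00195). Among the rises, Vegfa, which encodes the main ligand of KDR, was higher by 0.65, Vegfb, an FLT1 ligand gene, by 0.85 and Nrg1 by 0.94 (limma adjusted p = 0.00144, 0.00132 and 0.000491). These 5 genes were chosen after their values were seen.

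Co-receptors and matrix partners were evenly split. Of 13 genes 9 were tested, with 3 higher, 4 lower and 2 not called, and a median of -0.03. Without scaling between the arrays 2 were higher and 4 lower, and the median was -0.31. Sdc2 and Sdc1, which encode heparan sulphate proteoglycans that hold growth factors at the cell surface, rose by 4.26 and 1.64 and Gpc1, a glypican gene, by 0.50 (limma adjusted p = 6.18e-05, 0.000203 and 0.0147). Nrp1 and Nrp2, co-receptors of VEGF, and Lrp1, an endocytic receptor that associates with PDGFRB, fell by 0.62, 0.50 and 0.45 (limma adjusted p = 0.00305, 0.00473 and 0.0059).

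The shared relay inside the cell changed little in size. All 31 adaptor and relay genes were tested, 14 rose, 8 fell and 9 were not called, and a single one, Src, the kinase gene needed for osteoclast ruffled borders, passed 2-fold, with a log2 difference of 2.01, or 4.02-fold (limma adjusted p = 0.000186). Nck2 and Pik3cb rose by 0.70 and 0.64, and Pik3r1 and Pik3r2 fell by 0.57 and 0.40 on the log2 scale (limma adjusted p = 0.0033, 0.00163, 0.0345 and 0.00762). These small differences depended on scaling: without it 1 gene was higher and 9 were lower, and the median of 0.20 became -0.08.

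Feedback inhibitors of receptor signalling moved in both directions. Of 19 genes 18 were tested, 8 rose, 2 fell and 8 were not called, with a median of 0.26 that became 0.01 without scaling, where 6 were higher and 1 was lower. Grb10, an adaptor gene that restrains insulin and growth factor receptors, rose by 3.12 from a level above background on 1 of the Ano1fl/fl arrays. Spry1, a Sprouty gene that dampens the MAP kinase relay, rose by 3.05, and Errfi1, which encodes the EGFR inhibitor MIG6, by 1.59 (limma adjusted p = 0.000431, 7.47e-05 and 0.000352 for the 3 genes). Spry3 and Lrig3 fell by 1.00 and 0.22 on the log2 scale (limma adjusted p = 0.0225 and 0.0349). In each of these 5 lists the median was the same when lower limits stood in for genes that 1 group held below background, and it stands beside -0.06 for all genes tested.

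**Figure D4:**
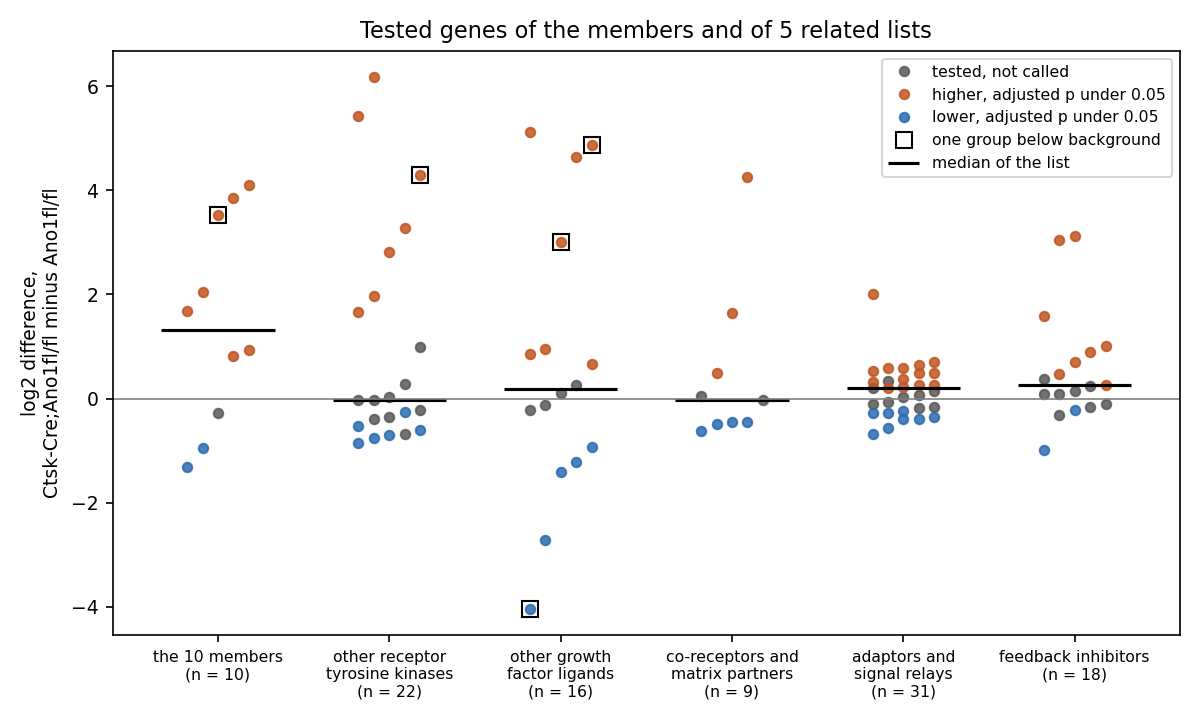
Log2 difference, Ctsk-Cre;Ano1fl/fl minus Ano1fl/fl (y axis), of each tested gene among the 10 members and in 5 lists of related genes (x axis, with the number tested), colored orange for higher, blue for lower and grey for not called, with a black line for each list's median. The members' median of 1.31 lies above those of the 5 lists, which run from -0.03 to 0.26, and the relay genes span the smallest range. Members and lists were chosen with earlier results of these data known. Square frames mark genes below background on all arrays of one group.

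Macrophage and epithelial markers complete the account of other cell types. Of 8 macrophage genes 1 was higher (Adgre1, a macrophage surface receptor gene, by 0.80, limma adjusted p = 0.000635), 2 were lower and 5 were not called. The lower genes were Cx3cr1, the fractalkine receptor gene, at -4.62 and Mrc1, the mannose receptor gene, at -1.36 on the log2 scale (limma adjusted p = 5.48e-05 and 6.07e-05). Not called were Cd68 and Cd14 among others, at 0.20 and -0.13 (limma adjusted p = 0.059 and 0.477), and with 75th percentile scaling 3 were lower. After quantile normalization the summed macrophage signal was 445953 to 463463 in the Ano1fl/fl group and 482941 to 529290 in the Ctsk-Cre;Ano1fl/fl group. The higher sum depends on scaling: the list's median of -0.01 became -0.31 without scaling between the arrays. Epithelial markers were dim throughout, with a summed signal of 143 to 176 and 86 to 127, and 3 of 6 were tested, 1 higher and 2 lower. Cdh1 made up 16.1% to 58.3% of this sum, and without it the groups overlapped, at 73 to 84 and 71 to 106. For Epcam and Krt18 the filter, passed through one group alone, fixed the direction. Epcam was below background on the Ano1fl/fl arrays and at least 2.79-fold higher, Cdh1 fell by 1.87 on the log2 scale (limma adjusted p = 0.000385 and 0.00535), Krt18 was below background on the Ctsk-Cre;Ano1fl/fl arrays and at least 2.0-fold lower (limma adjusted p = 0.000807), and Krt8 was below background on all 6 arrays.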

How the data were processed

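The authors deposited scanner files with intensity values for every spot of 6 Agilent arrays (design for mouse, Feature Extraction 10.7.1.1 per the labels) and a series matrix whose intensity values equal the median spot brightness. The processed signal used here is an intensity from which the software had removed background and trends within an array; it is not normalized between arrays. A spot near background holds a surrogate value, so a difference that rests on such a value has no measured size. Gene names, transcript positions and mm9 coordinates are those of the deposited files.

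Log2 processed signals, with outlier spots missing, were quantile normalized between arrays, the algorithm the methods name (limma 3.58.1, R 4.3.3). Spots of a probe were averaged, 14 probes lacking a value on some array were dropped, and a probe counted as well above background where at least 0.5 of its spots were. Groups were compared with limma's lmFit and eBayes and Benjamini-Hochberg adjustment over 20645 genes or 31848 probes. The script was tested on simulated data. Where all arrays of a group were below background, they were set to each array's lowest signal marked well above background and the fold is written as at least that value. The 3 arrays per group limit precision; an exact two-sided permutation test cannot go under 0.1. Each group's samples came from 3 mice.

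Named are all 10 members with every probe; of 5 related lists, up to 3 called genes with the largest rise and up to 3 with the largest fall; the first 3 genes of each of 7 marker lists; and the 3 nearest profiles of the members with the largest rise and fall. In the adaptor and relay list, 1 gene that this rule names is not reported here. The members and lists were chosen with earlier results of these data known. List genes were matched by name, 1 of them through a RefSeq synonym (table of GRCm38.p6). Alternatives changed 1 choice at a time: 75th percentile scaling, no scaling, normexp with offset 50, the series matrix, filters on dim probes, the replicate number as a block, trend and robust settings, the methods' t-test, the mean of a gene's probes, and leaving out each array. Plots were drawn with matplotlib 3.10.9.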

Additional observations from a re-analysis of the deposited data

How the results depend on the processing

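All 159 alternative values of the 10 members' log2 differences kept their direction, and 149 kept their side of the threshold over 16 alternatives. The filters on dim probes, the replicate block, the trend and robust settings and the t-test leave a difference as it is. In these settings only the side of the threshold could change, so a kept direction there says nothing. Pdgfra had no value when all 6 arrays had to be well above background. The exceptions were Pdgfb, not called in 9 of 16 alternatives (0.22 to 0.97, limma adjusted p 0.016 to 0.557), and Fgfr2, called in 1. The number of members higher was 6 or 7 and lower 2 or 3. Members more than 2-fold higher were 5, but 4 when all 6 arrays had to be well above background, 4 with the mean of all probes, and 5 to 6 when an array was left out: Fgfr1 joined without Ano1fl/fl replicate 2 or Ctsk-Cre;Ano1fl/fl replicate 3. Members more than 2-fold lower were 1, but 2 with 75th percentile scaling and 2 without scaling, 0 with the mean of all probes, and 1 to 2 when an array was left out: Pdgfa joined Kdr without Ano1fl/fl replicate 3 or Ctsk-Cre;Ano1fl/fl replicate 1. With the mean of all probes Pdgfra was 1.34 and Pdgfc 0.84 higher and Kdr -0.46, since averaging takes in their probes below background.

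Replicate numbers are shared by the groups, but the deviations of same-numbered arrays correlated at 0.00, -0.06 and -0.08, and 0 of 6 arrays correlated best with their own number, so the numbers were not taken as pairs. With the replicate block 7 members were higher and 2 lower, 5 and 1 by more than 2-fold, and 11 probes were higher and 3 lower; the block changed no call of a member, while genes called over the whole array were 4200 higher and 5079 lower.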
